A study of Mus musculus with 21 samples.

Results

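The transcripts described here are 10 genes of adult hippocampal neurogenesis and cell division: Mki67, Top2a, Nes, Eomes, Neurod1, Dcx, Sox11, Sox4, Igfbpl1 and Calb2. They were chosen by symbol among the 55487 Ensembl genes listed in the deposited counts. All 10 were listed, and all 10 passed the filter on low counts that left 18146 genes for testing. The expression of these genes was measured by bulk poly-A RNA sequencing of the hippocampus, with 1 library per mouse, and compared between rearing conditions. All mice were male wild type C57BL/6 mice, 10 weeks old when the tissue was taken. In the maternal separation (MS) group (9 mice), whole nests were kept away from the dam in another cage for 4 h each day from postnatal day 10 to 17, and most of the nesting material was removed from the home cage. In the standard rearing (SR) group (12 mice), which served as the control, nests stayed with the dam. Whole nests, not pups, were assigned to a condition, and after weaning the mice lived in groups of 3 littermates of the same sex.

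In the adult mammalian hippocampus, neurons continue to be born in the subgranular zone of the dentate gyrus. Radial glia-like stem cells divide and give rise to intermediate progenitors, these give rise to neuroblasts, and neuroblasts mature through an immature stage into glutamatergic granule neurons. The steps are commonly followed by genes that are switched on and off in turn, but most of these genes are also used by other cells of the hippocampus. In bulk tissue, fewer cells of a type and less RNA per cell cannot be told apart.

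Before the comparisons, 1 library was set aside. In a principal component analysis over all 21 libraries, MS mouse 5 scored 27.1 on component 1, whereas the other libraries had scores between -12.2 and 11.9. Its 11 granule cell markers summed to 241 CPM (CPM are counts scaled to the same normalised total in every library), against 573 to 1045 CPM in the other 20 libraries, and its 10 striatal markers summed to 2534 CPM, against at most 949 CPM. The comparisons therefore used 8 MS and 12 SR mice, with total counts of 17276810 to 24052716 in MS and 18368519 to 26450808 in SR. Each of the 11 granule cell markers and 8 CA pyramidal cell markers was detected in these 20 libraries. The closest pairs of libraries within a condition still differed by 3.38 (MS) and 4.05 (SR) times the sampling noise, as chi-square per degree of freedom. Mice came in 7 sets of 3 consecutive animal numbers, each of 1 condition (MS mice formed sets A, B and C, and SR mice sets D, E, F and G). The labels do not name the nests. Since litters held 3 males and whole nests were assigned, mice of a set were probably littermates. The p-values over mice measure the spread between mice, not between nests.

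None of the 10 genes passed the threshold (adjusted p under 0.05) between MS and SR mice. edgeR's quasi-likelihood test called 0 of 10 genes, against 0.011% of all genes tested, and none of the 10 had an unadjusted p under 0.05, against 11.5% of all genes. DESeq2's Wald test also called 0 of the 9 genes for which it gave an adjusted p, against 0.966% of all genes. The fitted log2 fold changes (MS against SR) ran from -0.10 for Dcx to 0.52 for Eomes, 7 of the 10 were above 0, and their median was 0.08, against a median of 0.00084 over all genes tested. In all 10 genes the ranges of MS and SR mice overlapped, and the share of all genes that do so was not counted.

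**Figure D1:**
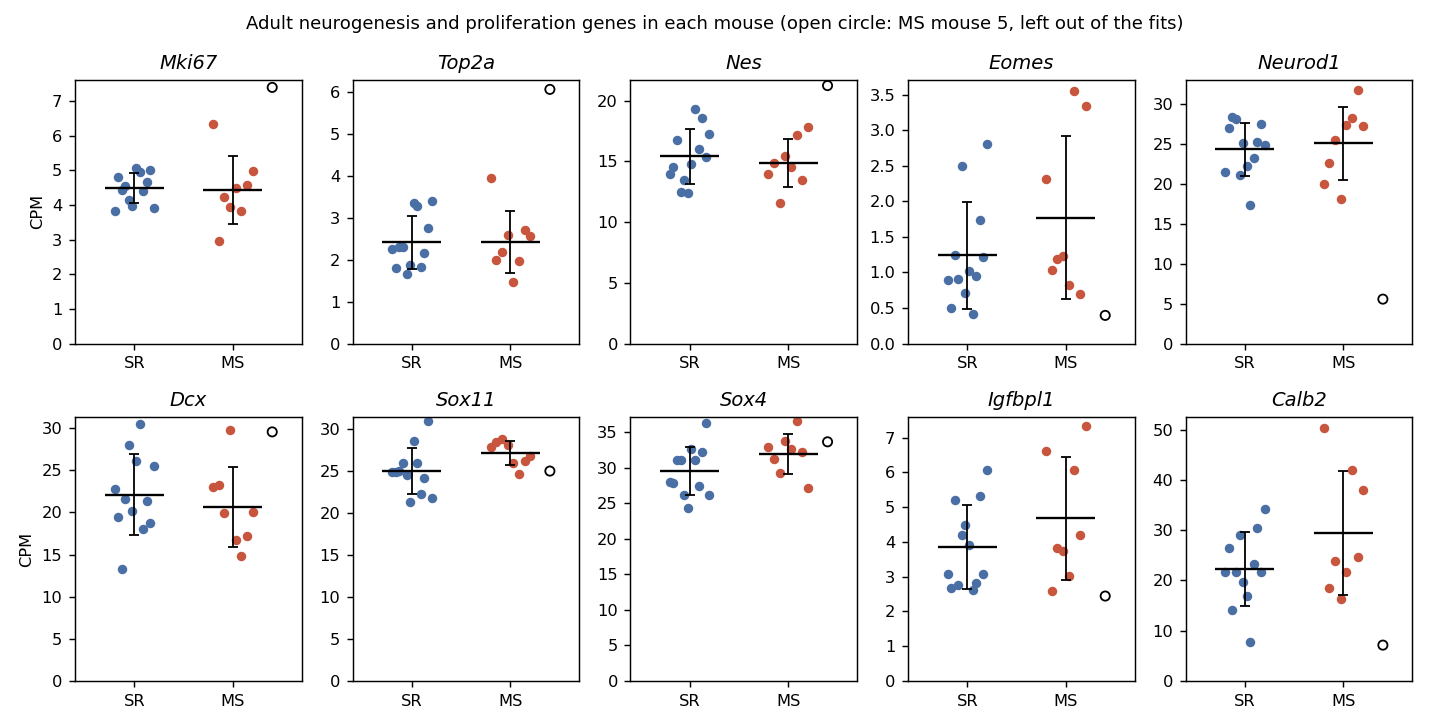
Normalised level (CPM, vertical axis from 0) of each of the 10 genes in each mouse, for 12 SR mice (blue) and 8 MS mice (red), with the mean and SD as a bar with caps. MS mouse 5, which was left out of the fits, is an open circle and lies above the 20 other mice in Mki67, Top2a and Nes and below them in Eomes, Neurod1, Igfbpl1 and Calb2.

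The levels of the 10 genes differed widely. Per kilobase of exon, Calb2 was the highest in SR mice, with 12.8 ± 4.21 CPM per kilobase (SD, n = 12). Neurod1 followed with 8.93 ± 1.22, Sox4 with 6.15 ± 0.711 and Sox11 with 3.01 ± 0.330 CPM per kilobase. Nes was at 2.40 ± 0.349, Dcx at 1.75 ± 0.376 and Igfbpl1 at 1.18 ± 0.369 CPM per kilobase. The lowest were Mki67 with 0.445 ± 0.0434, Eomes with 0.299 ± 0.180 and Top2a with 0.268 ± 0.0706 CPM per kilobase. Among neighbours in this order, the ranges over the 12 SR mice were separate only between Sox4 and Sox11 and between Igfbpl1 and Mki67. Eomes was above Top2a in 5 of 12 SR mice, so that their order was not fixed.

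Mki67 and Top2a are expressed in dividing cells. Mki67 encodes a nuclear protein that is present in cycling cells and lost from resting ones, and Top2a encodes the topoisomerase that untangles replicated DNA before mitosis. Many genes of this kind carry CCAAT boxes, bound by NF-Y, and a cell cycle homology region (CHR), through which the DREAM and MuvB complexes act. Of Mki67 and Top2a, only Top2a followed a list of cell cycle genes over mice past the threshold. The 250 bases before the RefSeq start of both genes are shown for this reason. They are given 5′ to 3′ on the strand of the gene (build GRCm38.p6, chr7:135716380-135716629 for Mki67 and chr11:99024190-99024439 for Top2a, both on the minus strand). Capitals mark the CHR letters TTTGAA and the CCAAT box letters CCAAT, each on either strand.
Mki67: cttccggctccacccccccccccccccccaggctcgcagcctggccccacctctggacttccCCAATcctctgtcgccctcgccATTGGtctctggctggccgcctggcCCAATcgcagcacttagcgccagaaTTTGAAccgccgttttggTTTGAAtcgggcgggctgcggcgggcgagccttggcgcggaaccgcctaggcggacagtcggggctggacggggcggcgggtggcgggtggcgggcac
Top2a: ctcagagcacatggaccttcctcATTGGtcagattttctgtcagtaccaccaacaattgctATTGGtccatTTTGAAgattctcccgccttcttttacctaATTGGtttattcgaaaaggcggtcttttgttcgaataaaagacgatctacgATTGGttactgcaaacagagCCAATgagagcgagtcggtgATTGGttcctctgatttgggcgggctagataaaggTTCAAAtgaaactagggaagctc
The window of Mki67 held 2 CHR and 3 CCAAT box matches, and that of Top2a held 2 and 6. CCAAT was found in 24 of 28 such windows of a list of cell cycle genes (85.7%), against 33.8% of all 32851 RefSeq windows. The CHR letters were found in 25.0% of the windows of the list, against 16.0% of all windows, and in 50.0% against 17.9% once the 50 bases after the start were included. Of the 9 windows found for 8 of the 10 genes, 3 held TTTGAA and 6 held CCAAT. These are matches of letters, and no binding was measured.

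Mki67 lay between 2.97 and 6.34 CPM in the 8 MS mice (median 4.36) and between 3.83 and 5.05 CPM in the 12 SR mice (median 4.49). MS mouse 1 was the highest and MS mouse 2 the lowest of all 20 mice, so that the MS mice spanned the SR range on both sides. The log2 fold change was -0.02 (SE 0.10, edgeR p = 0.848, adjusted p = 0.964), with a 95% interval from 0.850-fold to 1.15-fold.
Top2a lay between 1.46 and 3.96 CPM in MS (median 2.38) and between 1.66 and 3.40 CPM in SR mice (median 2.28). MS mouse 1 was again the highest. Its log2 fold change was 0.01 (SE 0.17, edgeR p = 0.956, adjusted p = 0.991), with a 95% interval from 0.788-fold to 1.29-fold. These levels rest on few reads, 55 to 119 counts per library for Mki67 and 30 to 79 for Top2a, and counting error alone gave coefficients of variation of about 10.5% and 14.2% in MS mice.

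Nes and Eomes mark stem cells and progenitors. Nes encodes nestin, an intermediate filament of neural stem cells that is also made by vascular cells. It lay between 11.6 and 17.8 CPM in MS mice (median 14.7) and between 12.4 and 19.3 CPM in SR mice (median 15.0), and SR mice 8 and 10 were above all MS mice. The log2 fold change was -0.05 (SE 0.09, edgeR p = 0.556, adjusted p = 0.869), with a 95% interval from 0.852-fold to 1.09-fold.
Eomes encodes a T-box transcription factor of intermediate progenitors. It lay between 0.690 and 3.55 CPM in MS mice (median 1.21) and between 0.422 and 2.81 CPM in SR mice (median 0.984). MS mice 7 and 9 were above all SR mice, and SR mice 2 and 8 were below all MS mice. Eomes rests on few reads, 16 to 79 counts per library in MS and 10 to 57 in SR mice, and DESeq2 gave it no adjusted p. The log2 fold change of 0.52 (SE 0.36) was the largest of the 10 genes, but its interval ran from 0.847-fold to 2.41-fold (edgeR p = 0.171, adjusted p = 0.616). Its biological coefficient of variation, the spread between mice beyond counting error, was 52.7%, higher than in 98.5% of genes tested, and without set C, which holds MS mice 7 and 9, the log2 fold change was 0.09.

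Neurod1, Dcx, Sox11, Sox4, Igfbpl1 and Calb2 belong to the neuroblast and immature neuron stages. Neurod1, a basic helix-loop-helix factor needed for granule cell differentiation and kept in mature granule neurons, lay between 18.1 and 31.8 CPM in MS mice (median 26.4) and between 17.4 and 28.4 CPM in SR mice (median 25.0). The log2 fold change was 0.05 (SE 0.10, edgeR p = 0.648, adjusted p = 0.904).
Dcx encodes doublecortin, a microtubule protein of migrating neuroblasts. It lay between 14.9 and 29.8 CPM in MS mice, with MS mice 3 and 9 in the middle at 19.9 and 20.1 CPM, and between 13.3 and 30.5 CPM in SR mice (median 21.5). SR mouse 8 was the highest and SR mouse 3 the lowest. The log2 fold change was -0.10 (SE 0.14, edgeR p = 0.468, adjusted p = 0.827), with a 95% interval from 0.762-fold to 1.14-fold. It was -0.20 without MS mouse 4, -0.05 without MS mouse 7 and 0.03 without set C.

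Sox11 and Sox4 are related SoxC transcription factors that switch on neuronal genes in neuroblasts. Sox11 lay between 24.6 and 28.8 CPM in MS mice (median 27.3) and between 21.3 and 30.9 CPM in SR mice (median 24.9). Of the 12 SR mice, 5 were below all MS mice and 1 was above them. With a log2 fold change of 0.12 (SE 0.06), Sox11 had the smallest p of the 10 genes (edgeR p = 0.0549, adjusted p = 0.447). With counts summed within each set, the edgeR p of Sox11 was 0.123 (adjusted p = 0.7015), and 0 of 21752 genes were called.
Sox4 lay between 27.1 and 36.5 CPM in MS mice (median 32.4) and between 24.3 and 36.2 CPM in SR mice (median 29.5). Its log2 fold change was 0.12 (SE 0.07, edgeR p = 0.0892, adjusted p = 0.513). Without set F, whose 3 SR mice held the highest SR mean of both genes, the log2 fold changes were 0.18 for Sox11 (adjusted p = 0.171) and 0.18 for Sox4 (adjusted p = 0.277) in edgeR.

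Igfbpl1, a secreted relative of the insulin-like growth factor binding proteins found in neuroblasts, lay between 2.59 and 7.34 CPM in MS mice (median 4.00) and between 2.62 and 6.07 CPM in SR mice (median 3.49). Its log2 fold change was 0.28 (SE 0.20, edgeR p = 0.184, adjusted p = 0.630), and it was 0.04 without set C and 0.16 without MS mouse 9.
Calb2 encodes calretinin, a calcium buffer of immature granule neurons that is also abundant in interneurons, mossy cells and Cajal-Retzius cells. It lay between 16.4 and 50.3 CPM in MS mice (median 24.2) and between 7.77 and 34.3 CPM in SR mice (median 21.7). MS mice 1, 7 and 9 were above all SR mice, and SR mice 3 and 8 were below all MS mice. The log2 fold change was 0.40 (SE 0.25, edgeR p = 0.121, adjusted p = 0.556), with a 95% interval from 0.923-fold to 1.89-fold. Without MS mouse 1 and SR mouse 8, which had the highest striatal marker sums of the 20 mice, it was 0.17 (adjusted p = 0.816).

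**Figure D2:**
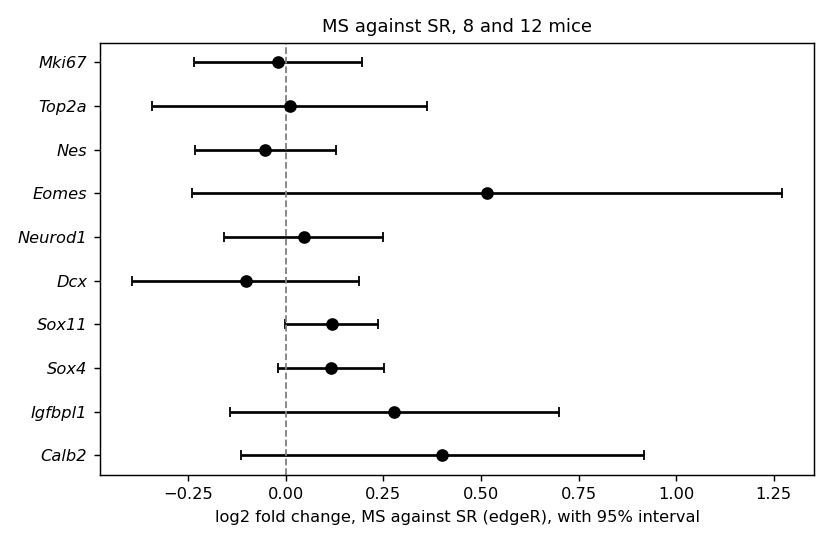
Log2 fold change of each gene, MS against SR (horizontal axis, edgeR), with its 95% interval as a bar, over 8 MS and 12 SR mice. The intervals of all 10 genes include 0, and those of Eomes, Calb2 and Igfbpl1 are the widest.

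The genes also differed in how much they varied between mice raised alike. The biological coefficient of variation was 37.4% for Calb2, 29.8% for Igfbpl1, 23.3% for Top2a and 20.8% for Dcx, against 13.3% for the common estimate over all genes. It was 14.9% for Neurod1, 13.7% for Mki67, 13.3% for Nes, 10.2% for Sox4 and 9.04% for Sox11.

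Differences between sets of the same condition were then tested, since mice of a set have adjacent animal numbers. edgeR called 0 of 10 genes, against 0.0331% of all genes, and DESeq2's likelihood ratio test also called 0 of the 10, against 0.987% of all genes (166 of 16827). At an unadjusted p under 0.05 there were 2 of 10, Sox11 and Nes, against 9.09% of all genes. Sox11 had means of 28.4, 27.0 and 25.9 CPM in MS sets A, B and C, and of 24.9, 23.9, 28.5 and 22.7 CPM in SR sets D, E, F and G (edgeR p = 0.00926, adjusted p = 0.453). Thus SR set F was as high as the highest MS set, and the other SR sets were below all 3 MS sets. Nes had means of 13.5, 15.0 and 16.2 CPM in the MS sets and of 15.1, 12.8, 16.5 and 17.3 CPM in the SR sets (edgeR p = 0.0175, adjusted p = 0.485).

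Animal numbers fell into 2 ranges, the first with 5 MS and 9 SR mice and the second with 3 and 3, and the MS effect was compared between them. edgeR called 0 of 10 genes and 0% of all genes, with 0 of 10 against 8.67% of all genes at an unadjusted p under 0.05, and DESeq2's likelihood ratio test called 0 of 10 as well, and 19 of 24215 genes. Neurod1 had the smallest interaction p of the 10 (log2 interaction 0.35, SE 0.19, edgeR p = 0.0887, adjusted p = 0.626): the difference of mean log2 CPM was -0.10 in the first range and 0.24 in the second. For Dcx these differences were 0.03 and -0.31 (edgeR interaction p = 0.279, adjusted p = 0.790).

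**Figure D3:**
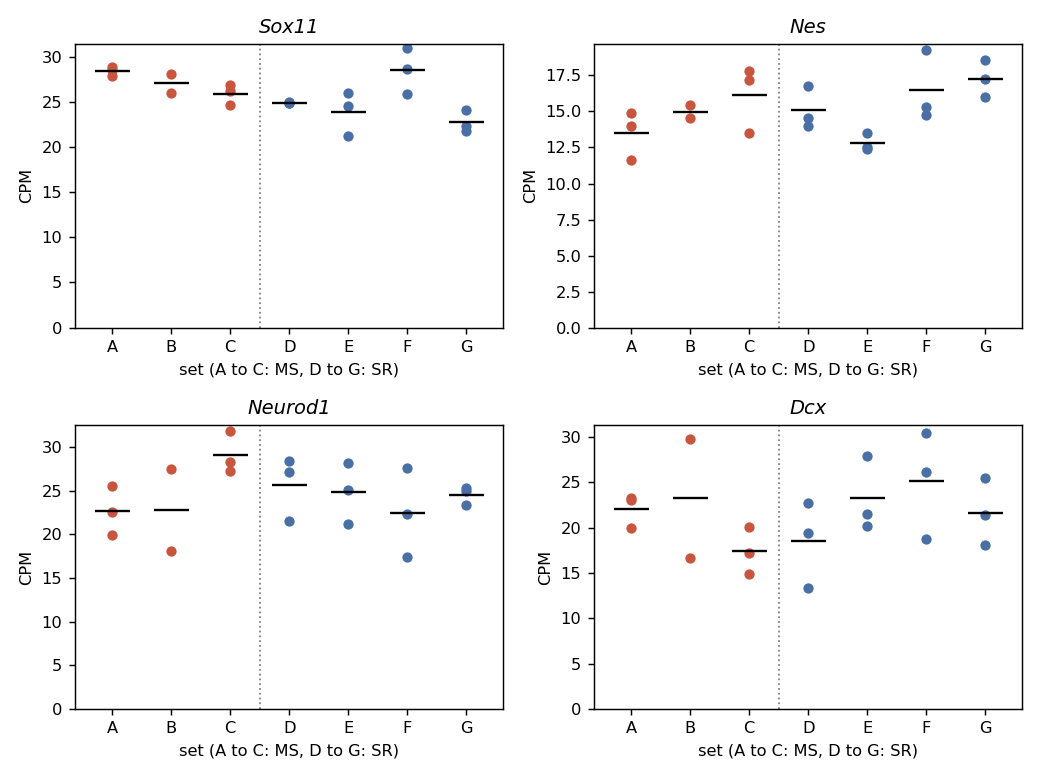
Level of Sox11, Nes, Neurod1 and Dcx (CPM, vertical axis from 0) in each mouse of the 7 sets, with sets A, B and C (MS) in red and sets D, E, F and G (SR) in blue, with the mean of each set as a black line. Sox11 means are 28.4 CPM in MS set A and 28.5 CPM in SR set F, and 22.7 CPM in SR set G.

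Further genes of the pathway were counted in lists of textbook genes. The lists are named by stage, but most of these genes are also used by other cells, so their counts are not particular to a stage of neurogenesis. In SR mice, Tubb2b (265.5 CPM) and Neurod2 (180 CPM) of the immature neuron list were far above Dcx (22.1 CPM). Draxin of the same list (1.44 CPM) was below it. These CPM are not scaled by exon length and do not show which cells the reads came from. Of 12 tested genes of stem cells and progenitors, edgeR called 0, 9 had a higher fitted level in MS mice, and the median log2 fold change was 0.04. The 3 with the smallest p were Sox2, a stem cell transcription factor (log2 fold change 0.16, p = 0.0157, adjusted p = 0.315), Id4, an inhibitor of differentiation (0.19, adjusted p = 0.406), and Vim, an intermediate filament gene (0.11, adjusted p = 0.597). Of 28 tested cell cycle genes, 0 were called and 16 had a higher fitted level in MS mice, with a median of 0.02. Cenpf, a kinetochore protein gene, came first there (0.42, p = 0.00874, adjusted p = 0.269), ahead of Kif23 (0.44, adjusted p = 0.478) and Nusap1 (0.13, adjusted p = 0.573), which both act on the mitotic spindle.
Of 20 immature neuron genes, 0 were called and 7 had a higher fitted level in MS mice, with a median of -0.02. Ncam1, the neural cell adhesion molecule, had 263 ± 21.2 CPM in MS and 282 ± 9.70 CPM in SR mice (log2 fold change -0.10, edgeR adjusted p = 0.316), and Tac2 and Nhlh1 followed with 0.56 (adjusted p = 0.463) and -0.41 (adjusted p = 0.509). Of 21 genes for niche signals and their receptors, 0 were called and 10 had a higher fitted level in MS mice, with a median of -0.0021. The smallest p there belonged to Nog, which encodes the BMP antagonist noggin (0.22, adjusted p = 0.460), Igf1 (-0.14, adjusted p = 0.523) and Bmp6 (0.49, adjusted p = 0.557). At an unadjusted p under 0.05 there were 2 stem and progenitor genes, 1 cell cycle gene, 1 immature neuron gene and 0 niche genes, against 11.5% of all genes tested, and DESeq2 called 0 genes of the 4 lists. Aurkb, Bub1, Ube2c, Tfap2c and Dkk1 were too low to be tested.

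The genes were next compared with each other over the 20 mice, on log2 CPM. Of 45 pairs, 4 had a positive and 1 a negative Pearson correlation that passed a permutation test after adjustment over the 45. The share of all gene pairs that would pass was not counted. Neurod1 and Dcx were opposed, with r = -0.81 (permutation p = 4e-05, adjusted p = 0.00135) and rho = -0.85 (permutation p = 1e-05, the smallest that the permutations can give). Without the 2 mice farthest from the median of Neurod1, r was -0.70. It was -0.89 within MS, -0.75 within SR, -0.86 in the first range of animal numbers, -0.48 in the second and -0.78 with the mean of each set subtracted.

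Eomes, Igfbpl1 and Calb2 rose and fell together over mice. Eomes and Igfbpl1 had r = 0.80 (permutation p = 6e-05, adjusted p = 0.00135) and rho = 0.73 (permutation p = 0.00033), and r was 0.71 without the 2 farthest mice, 0.84 within MS and 0.73 within SR. For Eomes and Calb2, r was 0.73 (permutation p = 0.00016, adjusted p = 0.0024) and rho 0.53 (permutation p = 0.0165, adjusted p = 0.148), with 0.65 without the 2 farthest mice, 0.78 within MS and 0.65 within SR. For Igfbpl1 and Calb2, r was 0.63 (permutation p = 0.00214, adjusted p = 0.0193) and rho 0.59 (permutation p = 0.00766, adjusted p = 0.115), with 0.48 without the 2 farthest mice, 0.89 within MS and 0.36 within SR. Within the first and second range of animal numbers r was 0.67 and 0.84 for Eomes and Igfbpl1, 0.62 and 0.96 for Eomes and Calb2, and 0.44 and 0.89 for Igfbpl1 and Calb2. With the mean of each set subtracted, r was 0.73, 0.61 and 0.44 for these pairs in the same order.

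Sox11 and Sox4 had r = 0.65 (permutation p = 0.00192, adjusted p = 0.0193) and rho = 0.56 (permutation p = 0.012, adjusted p = 0.135). This relation was seen within SR mice (r = 0.87), whereas r was -0.47 within MS mice, and the difference between the conditions was not tested. It was 0.46 without the 2 farthest mice, 0.83 in the first range, 0.38 in the second and 0.44 with the mean of each set subtracted. Mki67 and Top2a, both genes of dividing cells, had r = 0.47 (permutation p = 0.0333, adjusted p = 0.25) and rho = 0.42 (permutation p = 0.0645), and r was 0.27 without MS mice 1 and 2. Over all 20 mice, neither gene correlated with Dcx past the threshold (r = -0.01 for Mki67 and 0.39 for Top2a).

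**Figure D4:**
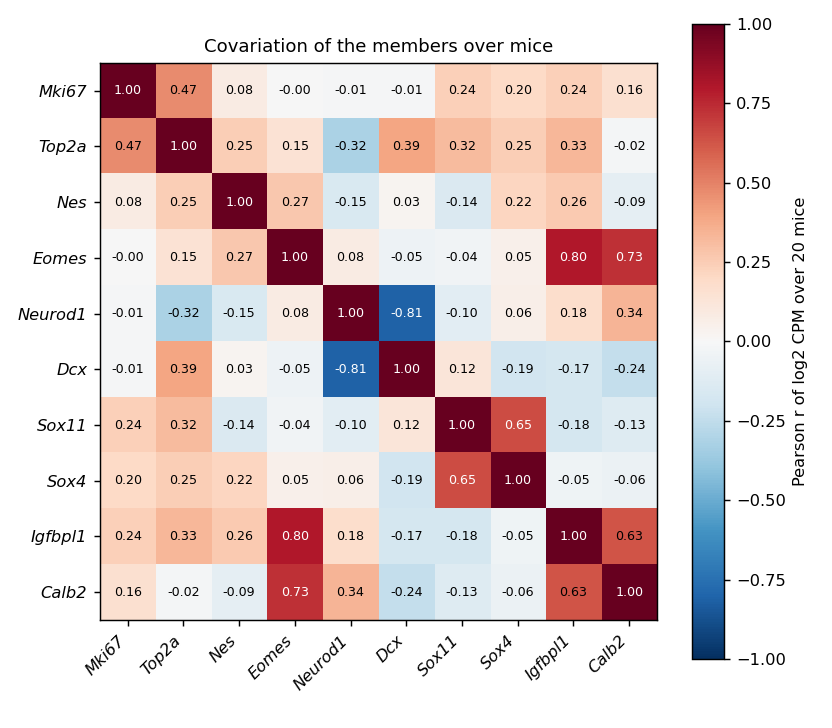
Pearson correlation of log2 CPM over 20 mice for each pair of the 10 genes, from -1 (blue) to 1 (red), with the value in each cell. Neurod1 and Dcx stand out with -0.81, and Eomes, Igfbpl1 and Calb2 form a block of 0.63 to 0.80.

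Because these genes are expressed in the dentate gyrus, each was also set against a granule cell score, the mean over 11 granule cell markers of log2 CPM centred on the mean of the mice. Of the 10 genes, 1 was positively and 1 negatively correlated with it after adjustment over the 10. Of the 18135 tested genes outside the score, 4.68% had an r at least as far from 0 as the weaker of these, so that relations of this size were not rare among all genes. The share of all genes that would pass the permutation threshold itself was not counted. Neurod1 had r = 0.85 (permutation p = 1e-05, the smallest possible, adjusted p = 1e-04) and rho = 0.78 (permutation p = 1e-04). Without MS mouse 4 and SR mouse 8, which had the scores farthest from the median, r was 0.76, and it was 0.97 within MS and 0.80 within SR. Dcx had r = -0.78 (permutation p = 4e-05, adjusted p = 2e-04) and rho = -0.73 (permutation p = 0.00045), and r was -0.67 without these 2 mice, -0.88 within MS and -0.78 within SR. In the first and second range of animal numbers r was 0.87 and 0.52 for Neurod1 and -0.88 and -0.17 for Dcx, so the relation of Dcx was weak among the 6 mice of the second range. Over these 20 mice, Dcx was thus low where the granule cell markers were high, and Neurod1 was high there. MS mouse 5, outside these 20 mice and with few granule cell marker reads, had 29.6 CPM of Dcx. Whether Dcx reads came from immature granule neurons was not tested. With the granule cell score as a term in edgeR, the log2 fold change was -0.17 for Dcx (adjusted p = 0.339) and 0.09 for Neurod1 (adjusted p = 0.484).

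**Figure D5:**
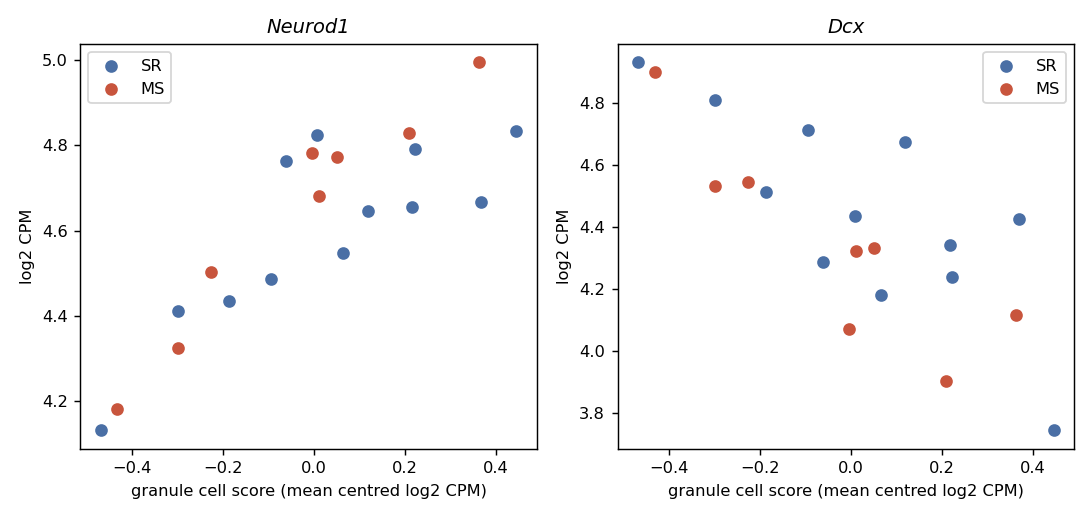
Log2 CPM of Neurod1 (left) and Dcx (right) against the granule cell score (horizontal axis, mean centred log2 CPM of 11 markers) for 12 SR mice (blue) and 8 MS mice (red). Neurod1 increases with the score (r = 0.85) and Dcx decreases (r = -0.78).

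Scores of other cell types moved with the same genes. Over all 190 relations of the 10 genes with 19 scores, 11 were positive and 4 negative past the threshold. A share among all genes was counted for the granule cell score only, so how common such relations are among all genes is not known for the other scores. A score of 8 CA pyramidal cell markers had r = 0.86 with Neurod1 (permutation p = 1e-05, the smallest possible, adjusted over the 190 p = 0.000633) and rho = 0.79 (permutation p = 7e-05). With Dcx it had r = -0.82 (permutation p = 1e-05, adjusted p = 0.000633) and rho = -0.81 (permutation p = 6e-05). Without the 2 farthest mice r was 0.75 and -0.79, and it was 0.90 and -0.88 in the first range of animal numbers and 0.37 and -0.47 in the second. Neurod1 thus rose, and Dcx fell, with the markers of the CA fields as well as with those of the dentate gyrus. Neurod1 was also opposed to the striatal score (r = -0.69, permutation p = 0.00079, adjusted p = 0.015, rho = -0.70, permutation p = 0.00114), with r = -0.66 without the 2 farthest mice, -0.68 in the first range and -0.66 in the second. Dcx went the other way with the striatal score but did not pass (r = 0.48, permutation p = 0.0312, adjusted p = 0.198). Its rho there was 0.65 (permutation p = 0.00255), and r was 0.57 without the 2 farthest mice. For the other 3 relations of these genes past the threshold, those of Neurod1 with the mossy cell score and of both with the GABAergic interneuron score, r fell from 0.67, -0.69 and 0.67 (Dcx) to 0.37, -0.43 and 0.48 without the 2 farthest mice. The mossy cell relation had r = 0.61 in the first range of animal numbers and 0.54 in the second, but those with the GABAergic interneuron score changed sign, from -0.79 to 0.55 for Neurod1 and from 0.83 to -0.64 for Dcx. The part of tissue composition in the levels of Neurod1 and Dcx was not tested.

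Sox4 followed the stem and progenitor list (r = 0.77, permutation p = 2e-05, adjusted p = 0.00095, rho = 0.76, permutation p = 0.00014). For this relation r was 0.76 without the 2 farthest mice, 0.84 within MS, 0.76 within SR, 0.69 in the first range and 0.92 in the second. Top2a followed the cell cycle list (r = 0.77, permutation p = 3e-05, adjusted p = 0.00114, rho = 0.62, permutation p = 0.00396), with r = 0.64 without the 2 farthest mice, 0.74 within MS, 0.85 within SR, 0.84 in the first range and 0.44 in the second. Mki67 passed with neither list. With the cell cycle list it had r = 0.57 (permutation p = 0.0106, adjusted p = 0.0959) and rho = 0.42 (permutation p = 0.0652). There r was 0.25 without the 2 farthest mice, 0.71 within MS, 0.485 within SR, 0.67 in the first range and -0.14 in the second.
Calb2 correlated with 4 Cajal-Retzius cell markers (r = 0.64, permutation p = 0.00167, adjusted p = 0.0244, rho = 0.62, permutation p = 0.00436), with r = 0.57 without the 2 farthest mice, 0.65 in the first range and 0.50 in the second. Eomes correlated with 7 markers of subventricular neuroblasts (r = 0.62, permutation p = 0.00284, adjusted p = 0.036, rho = 0.57, permutation p = 0.0113), with r = 0.50 without the 2 farthest mice, 0.55 in the first range and 0.76 in the second.

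The 3 genes Eomes, Igfbpl1 and Calb2 also moved with a list of 3 septal genes (Zic1, Zic4 and Trpc4) that was added after values had been seen. Eomes had r = 0.80 with it (permutation p = 5e-05, adjusted p = 0.00136) and rho = 0.81 (permutation p = 6e-05), with r = 0.84 without the 2 farthest mice. Igfbpl1 had r = 0.71 (permutation p = 0.0004, adjusted p = 0.0095) and rho = 0.71 (permutation p = 0.00063), with r = 0.66 without them. Calb2 had r = 0.64 (permutation p = 0.00233, adjusted p = 0.0316) and rho = 0.58 (permutation p = 0.00766), with r = 0.59 without them. In the first and second range r was 0.70 and 0.91 for Eomes, 0.70 and 0.68 for Igfbpl1, and 0.59 and 0.78 for Calb2. The p-values of these correlations do not account for the choice of the list after values had been seen. The list summed to 52.7 to 173 CPM in MS and 44.3 to 107 CPM in SR mice. Trpc4 alone had means of 41.4 CPM in MS and 43.4 CPM in SR mice. Its log2 fold change was -0.07, against 0.87 for Zic1 and 0.76 for Zic4. The part of septal or other neighbouring tissue in the levels of Eomes, Igfbpl1 and Calb2 was not tested.

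The lists of other cell types were compared between conditions in the same fit, and edgeR and DESeq2 both called 0 of their genes. At an unadjusted p under 0.05 in edgeR there were 2 subventricular neuroblast markers, 1 mossy cell marker and 1 striatal marker, against the 11.5% of all genes. Summed CPM ranged from 573 to 976 in MS and from 588 to 1045 in SR mice for 11 granule cell markers, and from 613 to 880 and 591 to 886 for 8 CA pyramidal cell markers. The 10 choroid plexus markers ranged from 55.3 to 4283 CPM in MS and from 31.1 to 4625 CPM in SR mice, with medians of 3384 and 856 CPM, and the 10 striatal markers from 183 to 949 (median 204) and from 177 to 604 CPM (median 194). All 10 choroid plexus markers had a higher fitted level in MS mice (median log2 fold change 0.88), as did all 10 striatal markers (median 0.47). The same held for 2 of 11 granule cell markers (median -0.09), 1 of 8 CA pyramidal cell markers (median -0.05) and 50.4% of all genes tested. The part of these tissues in the values of the 10 genes was not tested. The 7 markers of thalamus and habenula, also added after values had been seen, summed to 75.8 to 201 CPM in MS and 75.8 to 123 CPM in SR mice, and 7 of 7 had a higher fitted level in MS mice (median log2 fold change 0.14). MS mouse 1 had the highest striatal score (2.61) and the highest thalamus and habenula score (1.69) of the 20 mice. The other MS mice in the fit had at most 0.249 and 0.0843. Interneuron (7), subventricular neuroblast (7), Cajal-Retzius (4 of 5 tested), oligodendrocyte precursor (7), microglia (6), mossy cell (3) and endothelial and pericyte markers (9) also overlapped between the conditions, and no marker of these lists was at 0 in all 20 mice.

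By the fixed rule, the 3 genes most alike in pattern over the 20 mice were named for 4 of the genes, as a description. Dcx was most like Myo5a (r = 0.94), 4932438A13Rik (0.93) and Dennd4a (0.93), whose exons span 14803, 32279 and 16643 bases, against 12647 for Dcx. The transcript length trend, the rank correlation over genes of centred log2 CPM with exon length in each mouse, had r = 0.57 with Dcx (permutation p = 0.00784, adjusted p = 0.0828) and rho = 0.53 (permutation p = 0.0179), and with that trend as a term the log2 fold change of Dcx was 0.04. With Sox4 the trend had r = -0.485 (permutation p = 0.0276, adjusted p = 0.194), and with it as a term the log2 fold change of Sox4 was 0.07. Mki67 was most like Kif11, a mitotic kinesin (0.78), Hbp1 (0.78) and Plppr1 (0.75). Nes was most like Entpd1 (0.76), AA986860 (0.73) and Sox10 (0.73), and Calb2 was most like Npffr1 (0.87), Col25a1 (0.85) and Hap1 (0.84).

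The positions below are those of the GENCODE M21 annotation of GRCm38, and reads that fall on overlapping genes limit some values. Mki67 (ENSMUSG00000031004) lies on chr7:135689784-135716361 on the minus strand, Top2a (ENSMUSG00000020914) on chr11:98992943-99024189 on the minus strand, Nes (ENSMUSG00000004891) on chr3:87971078-87980451 on the plus strand and Eomes (ENSMUSG00000032446) on chr9:118478212-118486132 on the plus strand. Dcx (ENSMUSG00000031285) lies on chrX:143855842-143933311, Sox11 (ENSMUSG00000063632) on chr12:27334264-27342574, Igfbpl1 (ENSMUSG00000035551) on chr4:45809468-45826923 and Calb2 (ENSMUSG00000003657) on chr8:110137502-110168210, all on the minus strand. Neurod1 (ENSMUSG00000034701, chr2:79452521-79456751, minus strand) shares 201 exon bases with Cerkl on the same strand, Eomes shares 118 exon bases with the antisense gene Gm33460, and Sox4 (ENSMUSG00000076431, chr13:28948919-28953713, minus strand) shares 2616 exon bases with Gm26735 on the opposite strand. Whether the counting used strand was not stated, so reads of such genes and their antisense partners could not be told apart.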

How the data were processed

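Hippocampal poly-A RNA of 21 mice (1 library each, 9 MS and 12 SR) was sequenced. Groups came from the labelled treatment. The authors aligned reads with STAR 2.7.3a to GRCm38, assigned them to Ensembl genes using FeatureCounts, then deposited raw counts, neither normalized nor filtered; columns that belong to no sample numbered 0. The members and lists were chosen with earlier results of these data known.

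The study removed 1 outlier without naming it. Here the library farthest from the median on the first component of a PCA (DESeq2 variance-stabilised counts, 500 most variable genes) was left out. Genes were kept by filterByExpr with a minimum count of 10, and TMM-normalized counts were tested with edgeR 4.0.16 (robust quasi-likelihood, Benjamini-Hochberg over 18146 genes, threshold 0.05) in R 4.3.3. DESeq2 1.42.0, the tool of the study, and limma 3.58.1 served as alternatives, and independent hypothesis weighting was not used. Each SE was derived from the log2 fold change and the F statistic. Total counts were 17276810 to 30449055, and counting error is largest for low genes. Log2 CPM used a prior count of 2, and permutation tests were two-sided with 100000 draws. The sets are inferred from animal numbers in the labels. The genes named are the 10 members, the 3 smallest p of each neurogenesis list, and the 3 genes most alike for Dcx, Mki67, Nes and Calb2. Symbols come from GENCODE M21 (55227 of 55487 IDs matched) and promoters from RefSeq. The fits were tested on simulated data. Alternatives were all 21 libraries, DESeq2, no filter, DESeq2 size factors, the number range or granule cell score as a term, counts summed per set, limma-voom treating sets as random blocks, and each mouse or set left out; the length trend as a term, leaving out MS 1 and SR 8, and the scores other than the granule cell score were added after seeing the data.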

Additional observations from a re-analysis of the deposited data

Results flagged for a closer look

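A check for values above all 12 SR mice flagged 3 of the genes in MS mouse 5, the library outside the comparisons. They were also above the 8 other MS mice. Mki67 was at 7.39 CPM, Top2a at 6.07 CPM and Nes at 21.2 CPM in that library. Eomes, Neurod1, Igfbpl1 and Calb2 were below all 20 other mice there, Neurod1 with 5.57 CPM against at least 17.4 CPM. Dcx was at 29.6 CPM there, near the upper end of the range of the 20 other mice (13.3 to 30.5 CPM). The granule cell markers of MS mouse 5 summed to 241 CPM and its striatal markers to 2534 CPM. The part of this tissue composition in these values was not tested. No mouse of the MS group was set apart from the other 7 in any of the 10 genes by a gap test, and the largest gap was that of Top2a in MS mouse 1 (0.498 of the range, against a critical value of 0.526). The gap test was not run on the 12 SR mice.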

How the results depend on the processing

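Under the 37 alternatives to the comparison of MS with SR, the number of the 10 genes called stayed at 0, including when each mouse was left out in turn (0 to 0), while the number of all genes called ran from 0 to 340. The smallest adjusted p of any of the 10 genes under an alternative was 0.171, for Sox11 without set F. The fold changes of Eomes, Sox11, Sox4, Igfbpl1 and Calb2 stayed positive in all 37 (lowest 0.086 for Eomes and 0.037 for Igfbpl1, both without set C), and those of the other 5 genes, which lie near 0, changed sign in some. For Sox4 the lowest was 0.068, with the length trend as a term (edgeR p = 0.311, adjusted p = 0.750). With all 21 libraries the log2 fold changes were 0.089 for Mki67, 0.017 for Nes and -0.089 for Neurod1. For Top2a the value was -0.00058 without the filter on low counts, -0.012 with the granule cell score as a term, -0.0066 with counts summed within each set and -0.070 without MS 1 and SR 8, and with the length trend as a term the log2 fold change was 0.036 for Mki67 and 0.035 for Dcx. Leaving out a set gave -0.091 (set A), -0.051 (set D) and -0.085 (set E) for Top2a, 0.025 (set A) and 0.0036 (set G) for Nes, -0.10 for Neurod1 and 0.027 for Dcx (set C), and 0.037 for Mki67 (set F). Leaving out each mouse in turn gave ranges of -0.11 to 0.041 for Mki67, -0.12 to 0.086 for Top2a and -0.011 to 0.099 for Neurod1, and without a change of sign -0.095 to -0.010 for Nes, 0.28 to 0.69 for Eomes, -0.20 to -0.046 for Dcx, 0.098 to 0.14 for Sox11, 0.086 to 0.14 for Sox4, 0.16 to 0.36 for Igfbpl1 and 0.25 to 0.49 for Calb2. The cause of these sign changes was not tested. Between sets of a condition, 4 of the 10 genes were called without the filter on low counts, where edgeR called 1992 genes (5.10%) and estimated infinite prior degrees of freedom for the median gene, so that its spread was taken from all genes together. With all 21 libraries, 4 of the 10 genes correlated with the granule cell score, since MS mouse 5 then entered with its low score. Neurod1 and Dcx kept their sign and passed the threshold in all 25 alternatives to that correlation. Depth limits Mki67, Top2a, Eomes and Igfbpl1, with 10 to 135 counts per library. No paired analysis was possible because the labels give no replicate number that MS and SR mice share.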
